A study of Mus musculus with 8 samples.

Results

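Cyclin-dependent kinase (CDK) inhibitors bind and block the kinases that carry cells through the cell cycle. The 4 genes described here, Cdkn1b, Cdkn1c, Cdkn2c and Cdkn2d, were chosen by gene symbol, and all 4 were among the 14861 genes of the deposited table, with 1 transcript each. Cdkn1b and Cdkn1c encode p27 and p57, members of the CIP/KIP family, which bind complexes of cyclins with CDK2 and other kinases. Cdkn2c and Cdkn2d encode p18 and p19, members of the INK4 family, whose ankyrin repeats bind CDK4 and CDK6 and keep them from D-type cyclins. Mouse pluripotent stem cells are known for a short G1 phase and high CDK activity. The amount of p27 is largely set after transcription, by ubiquitin-driven degradation, so transcription is only 1 of the layers that set the level of that inhibitor.

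Transcription was read by PRO-seq, which maps RNA polymerases engaged on genes by letting them extend their nascent RNA in isolated nuclei. The cells were mouse induced pluripotent stem cells of a clonal line with the FUCCI2 cell-cycle reporter, and all groups shared irradiated feeder cells, serum, LIF and inhibitors of MEK and GSK3. Mitotic cells (0 h) were arrested by blocking microtubules with nocodazole (200 ng/ml, 6 h) and collected by shake-off, early G1 cells were released into fresh medium for 1 h and late G1 cells for 3 h. Asynchronous cells were cycling and untreated. The labels list 2 libraries per group, but the table holds 1 combined value per gene and group, so there is no replicate spread, no test and no p-value, and every difference below has no replicate check. The table's headings early G1 and late G1 were matched by meaning to the 1 h and 3 h releases. Stage, drug exposure and shake-off cannot be told apart in any comparison with asynchronous cells.

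The signal is the authors' normalized value per gene, with unknown depth. The sources used here do not say whether it is divided by gene length, so levels are compared within a gene and not between genes. A ratio is the log2 of (signal + 0.1) in one group over that in another, which understates the change of low signals, while shares in percent carry no added value. Genes past 2-fold are counted, beside the share of all genes with a mean signal of at least 0.5 that pass in the same direction. Column totals were 16863 at 0 h, 361203 at 1 h, 326086 at 3 h and 309144 in asynchronous cells, and every comparison that involves mitosis rests on that scaling. All 6 naive pluripotency markers looked up had signal in every column, with late G1 within 2-fold of early G1. Of 9 fibroblast feeder markers, 7 were in the table, and their summed signal was 4.18 at 0 h, 133 at 1 h, 103 at 3 h and 73.8 in asynchronous cells. Fn1, the fibronectin gene, singled out after its values were seen, made up most of that sum, and without it the sum was 0.923 at 0 h, 27.3 at 1 h, 41.6 at 3 h and 20.4 in asynchronous cells. Such a sum weighs genes by signals that may depend on gene length, so it is read only from column to column. Twist1 was listed at 0 in mitosis.

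The start sites that the table assigns differ in how well they match RefSeq (GRCm38.p6), which bears on which promoter the signal is tied to. For Cdkn1b (chromosome 6, plus strand, transcript ENSMUST00000003115) the table's start at 134920401 is the RefSeq start. The RefSeq gene spans 5125 bp, to 134925525. Cdkn1c (chromosome 7, minus strand, start at 143460996, RefSeq span of 2721 bp from 143458339 to 143461059) starts 63 bp inside the RefSeq gene. Cdkn2d (chromosome 9, minus strand, start at 21291407, span of 2963 bp from 21288459 to 21291421) starts 14 bp inside the RefSeq gene and 198 bp upstream of the start used for its RefSeq promoter. Cdkn2c (chromosome 4, minus strand, start at 109667189, span of 5881 bp from 109660876 to 109666756) starts 433 bp upstream of the RefSeq gene. No other RefSeq gene overlapped any of these 4 spans.

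The bases just before the table's start are shown for the 2 genes whose RefSeq promoter reaches it, because they are the sequence upstream of the position to which the table ties the signal. They were taken from RefSeq promoters of GRCm38.p6, chr6:134920151-134920400 on the plus strand and chr9:21291408-21291459 on the minus strand, and each ends at the base before the start. Capitals mark a CCAAT box on either strand, which reads ATTGG when it lies on the other one. They also mark the GC box, GGGCGG.
Cdkn1b: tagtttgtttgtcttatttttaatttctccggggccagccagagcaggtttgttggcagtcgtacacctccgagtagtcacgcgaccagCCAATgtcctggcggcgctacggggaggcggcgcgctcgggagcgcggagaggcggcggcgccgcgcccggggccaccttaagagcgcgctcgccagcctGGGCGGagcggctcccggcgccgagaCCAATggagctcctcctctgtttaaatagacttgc
Cdkn2d: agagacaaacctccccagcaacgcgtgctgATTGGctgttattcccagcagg

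The Cdkn1b window of 250 bases was 64.4% G and C, against a median of 52.4% over 32841 RefSeq promoter windows of the same length. It held CCAAT 2 times, beginning 161 and 35 bases before the start, and GGGCGG 1 time, 61 bases before it, with no overlap between these matches. Both strands were searched, and 33.9% of all such windows held CCAAT and 32.7% held GGGCGG. Another 5 sets of letters were searched and were not in it. They were the E2F motif TTTNNCGC, which 4.28% of windows held, and the CHR motif TTTGAA, held by 16.0%. The FOXO motif TGTTTAC was held by 3.17% of windows. The E box CACGTG was held by 6.02% of windows. The TATA box TATAAA was held by 12.4% of windows. The Cdkn2d window of 52 bases held CCAAT 1 time, on the other strand and beginning 22 bases before the start, as did 8.99% of promoter windows of that length. None of the other 6 sets of letters was in it.

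Of the 4 genes, only Cdkn1b had a late G1 signal more than 2-fold below its early G1 signal, while its family partner Cdkn1c and both INK4 genes stayed within 2-fold. Cdkn1b had a signal of 1.02 at 0 h, 19.1 at 1 h, 6.78 at 3 h and 22.7 in asynchronous cells. It was high at 1 h, low again at 3 h and highest in asynchronous cells. Cdkn1c, an imprinted gene expressed from the maternal copy, had 0.524 at 0 h, 4.96 at 1 h, 4.39 at 3 h and 3.74 in asynchronous cells. Its 3 columns outside mitosis lay close together, with early G1 the highest. Cdkn2c had 0.464 at 0 h, 3.90 at 1 h, 3.76 at 3 h and 5.71 in asynchronous cells. Early and late G1 were nearly equal and both below the asynchronous level. Cdkn2d had 0.601 at 0 h, 7.76 at 1 h, 6.36 at 3 h and 5.31 in asynchronous cells. Its order was that of Cdkn1c, while Cdkn1b and Cdkn2c shared the other order, mitosis, late G1, early G1 and asynchronous from low to high. With no spread between libraries, neighbours in these orders cannot be called different.

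**Figure D1:**
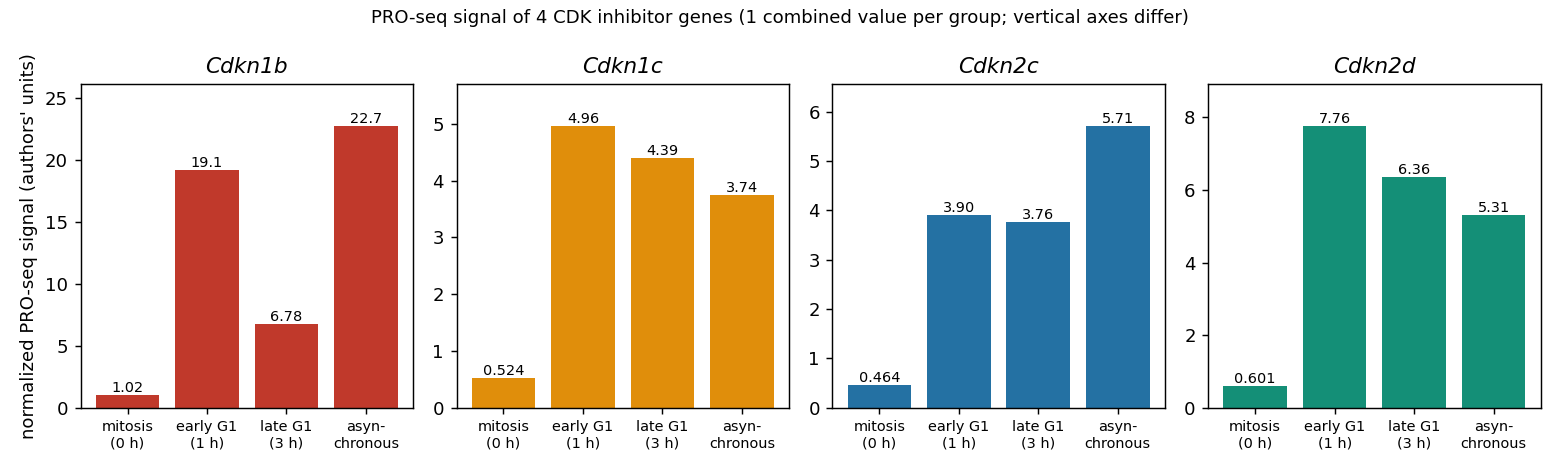
Normalized PRO-seq signal (vertical axis, authors' units, from 0, a separate scale per gene) of each gene in mitosis, early G1 (1 h), late G1 (3 h) and asynchronous cells, 1 combined value per bar and no error bars. Cdkn1b is 6.78 in late G1, against 19.1 in early G1 and 22.7 in asynchronous cells, while the late G1 bars of the other 3 genes are close to their early G1 bars.

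In mitosis all 4 genes were at least 2-fold lower than in asynchronous cells, as were 99.1% of 14444 genes, so the lower signal itself is the background and not a result about them. That direction rests on the authors' scaling: with equal column medians the log2 ratio turned to 1.41 for Cdkn1c, 1.11 for Cdkn2d and 0.64 for Cdkn2c, and stayed below 0 for Cdkn1b (-0.21). In these bulk libraries, fewer transcribing cells and less transcription per cell cannot be told apart. The share of the asynchronous signal that was kept differed among them. Cdkn1c kept 14.0%, Cdkn2d 11.3%, Cdkn2c 8.12% and Cdkn1b 4.48%, beside a median of 5.36% over 14397 genes and a middle range of 4.04% to 7.13%. Cdkn1c, Cdkn2d and Cdkn2c thus lay above that middle range and Cdkn1b inside it. On the log2 ratio, Cdkn1c was 1.27 above the median gene and the only one of the 4 at least 2-fold above it, as 11.7% of all genes were. Cdkn2d was 0.94 above, Cdkn2c 0.53 above and Cdkn1b 0.46 below (-0.46). All 4 mitotic signals were between 0.464 and 1.02, where small additions change a share most.

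By early G1 each of the 4 genes was past 2-fold above its mitotic signal, like 99.3% of 14456 genes. Without the added 0.1, Cdkn1b was 18.8-fold higher, Cdkn2d 12.9-fold, Cdkn1c 9.47-fold and Cdkn2c 8.40-fold. The log2 ratios were 4.11 for Cdkn1b, 3.49 for Cdkn2d, 3.02 for Cdkn1c and 2.83 for Cdkn2c, against 4.21 for the median gene. With equal column medians all 4 turned to below 0, from -0.36 for Cdkn1b to -1.49 for Cdkn2c. Cdkn1b lay near the middle of all genes, with 44.9% of them below it. Cdkn1c and Cdkn2c were at least 2-fold below the median gene, as were 17.3% of all genes. The mitotic column enters both this ratio and the share kept in mitosis, so a gene with more residual signal has a smaller ratio here.

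Set against asynchronous cells, early G1 showed no member past 2-fold, while 17.7% of 14661 genes were past 2-fold upwards and 9.53% downwards. Cdkn2d reached 146% of its asynchronous signal and Cdkn1c 133%. Cdkn1b reached 84.3% and Cdkn2c 68.2%. The median over 14397 genes was 124%, so Cdkn2d and Cdkn1c were above that of the median gene and Cdkn1b and Cdkn2c below it. These values and those of late G1 share the asynchronous column.

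**Figure D2:**
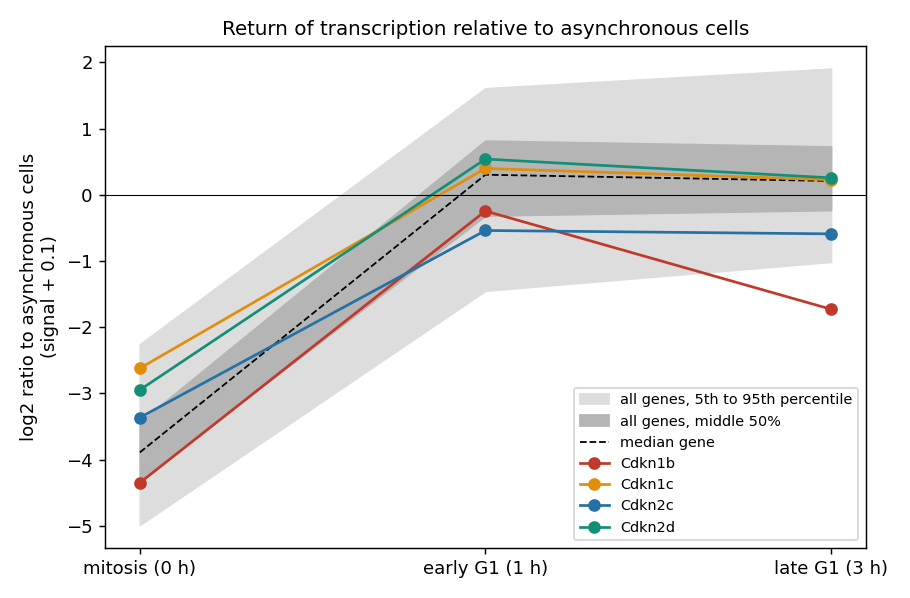
The log2 ratio of (signal + 0.1) to asynchronous cells (vertical axis) in mitosis, early G1 and late G1, with 1 coloured line per CDK inhibitor gene, the median gene dashed, the middle 50% of all genes in dark grey and the 5th to 95th percentile in light grey. Cdkn1b is at -0.25 in early G1 and -1.73 in late G1, below the light band, whose lower edge there is -1.01.

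Between early and late G1 Cdkn1b alone of the 4 changed by at least 2-fold. Its signal was 6.78 in late G1, against 19.1 in early G1, a share of 35.4%. Cdkn2c kept 96.4% of its early G1 signal in late G1, Cdkn1c 88.5% and Cdkn2d 81.9%. The log2 ratio of Cdkn1b was -1.48, and 286 of 14699 genes (1.95%) had a lower one. Past 2-fold lower were 7.52% of all genes, and past 2-fold higher 15.1%. The ratios of the other 3 were -0.17 for Cdkn1c, -0.05 for Cdkn2c and -0.28 for Cdkn2d, beside -0.08 for the median gene. The sign of the Cdkn2c value turned with equal column medians (0.06) and with equal column totals (0.09). Of the 7 feeder markers, 4 had a signal at least 2-fold higher at 3 h than at 1 h and none a signal that much lower, and their part in the Cdkn1b value was not tested.

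Late G1 was also set against asynchronous cells. Cdkn1b had 29.9% of its asynchronous signal, a log2 ratio of -1.73, and 197 of 14695 genes (1.34%) had a lower one. It was 1 of 4 members at least 2-fold lower, beside 5.14% of all genes. No member was among the 16.9% at least 2-fold higher. Cdkn2c had 65.8% of its asynchronous signal and a ratio of -0.59, with 12.1% of genes below it. Cdkn2c passed 2-fold with quantile normalization of the columns (-1.04). Cdkn1c had 117% and Cdkn2d 120%, near the median of 116% over all genes, and with quantile normalization both ratios turned to slightly below 0 (-0.15 and -0.05). Late G1 at least 2-fold below both early G1 and asynchronous cells was seen at 169 of 14631 genes (1.16%), with Cdkn1b among them. That pair of ratios shares the late G1 column.

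Late G1 against mitosis closed the set. Here Cdkn1b had the smallest ratio of the 4, 2.62, an increase of 6.66-fold without the added 0.1. Cdkn2c was 8.11-fold higher, Cdkn1c 8.38-fold and Cdkn2d 10.6-fold. Each was past 2-fold above its mitotic signal, like 99.7% of 14467 genes. Relative to the median gene, 3 of the 4 were at least 2-fold lower (Cdkn1b -1.49, Cdkn2c -1.34 and Cdkn1c -1.26, with Cdkn2d at -0.91), beside 8.09% of all genes. With any of the 3 rescalings the 4 ratios turned to below 0, from -0.86 for Cdkn2d with equal totals to -1.78 for Cdkn1b with quantile normalization.

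The authors' deposited table also gives each gene a temporal class, and the sources used here do not say how it was made. Cdkn1b and Cdkn1c are Early_Plateau (3910 genes), Cdkn2d is Early_Spike (4991 genes) and Cdkn2c is Gradual (2296 genes). The late G1 value of Cdkn1b sat at the edge of its class. Its late over early G1 ratio of -1.48 was set against a class median of -0.18, and 36 of 3907 Early_Plateau genes (0.92%) had a lower one. Cdkn1c, in the same class, lay at its middle, with 51.1% of the class below its -0.17. Cdkn1c stood out in its class by its mitotic value, since 99.3% of 3880 Early_Plateau genes had a lower ratio of mitotic to asynchronous signal. The 169 genes whose late G1 signal was at least 2-fold below both other columns were spread over classes of unlike size. They were 86 of 3907 Early_Plateau genes, 44 of 2234 Gradual, 39 of 4945 Early_Spike and 0 of 3545 Transient. Whether the classes were made from these same columns is not stated.

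**Figure D3:**
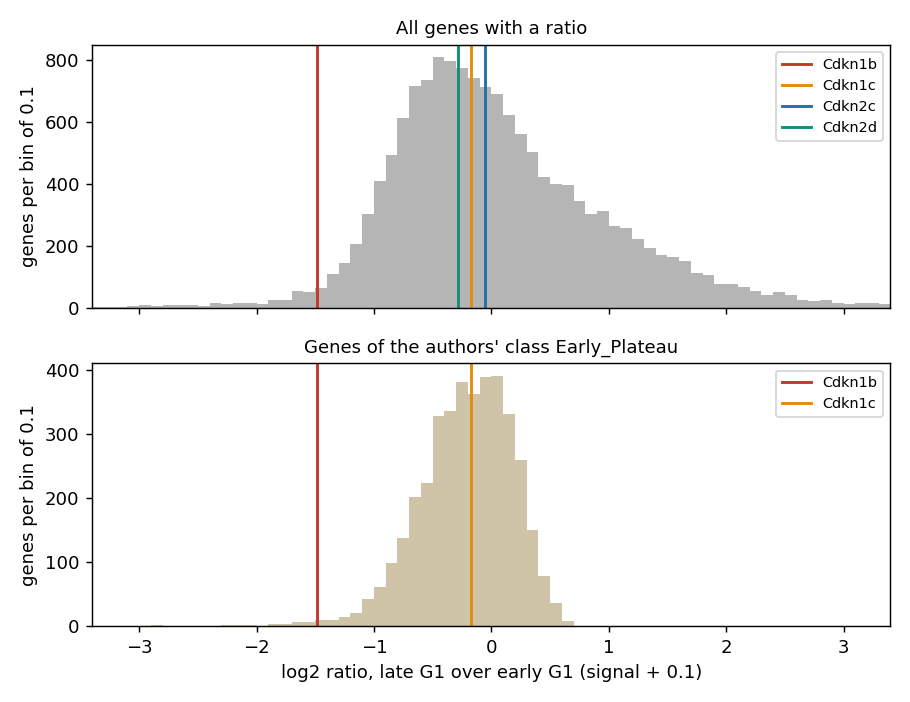
Number of genes (vertical axis) by log2 ratio of late over early G1 in bins of 0.1 (horizontal axis, shown to 3.4 on either side), for all genes above and for the class Early_Plateau below, with a vertical line for each CDK inhibitor gene (below, only the 2 of that class). The Cdkn1b line at -1.48 lies in the left tail of both, and the Cdkn1c line at -0.17 lies in the middle of both.

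Genes with the profile most like each member were found over the 4 columns, as the smallest distance over the 3 log2 ratios to asynchronous cells among 13698 genes. Nearest to Cdkn1b were Rcn3 (distance 0.12), Nid1 (0.20), Apoc2 (0.25), Fam19a3 (0.26) and Slc2a3 (0.30). Rcn3, which encodes a calcium-binding protein of the endoplasmic reticulum, had 0.541 at 0 h, 11.9 at 1 h, 4.27 at 3 h and 13.6 in asynchronous cells. Slc2a3, a glucose transporter gene, had 4.81, 93.4, 36.1 and 121 in the same order. Closeness over these same columns is how both were picked, so their high early G1 and low late G1 values follow from that choice. Nearest to Cdkn1c were Ccdc7a (0.08), Gabrr2 (0.09), Ttc36 (0.14), Slc27a5 (0.18) and Morn5 (0.18). Nearest to Cdkn2c were Cmtr2 (0.05), Dazap2 (0.19), Srrm3 (0.19), Cited2 (0.19) and Fhl1 (0.20). Nearest to Cdkn2d were Elmod3 (0.02), Evi5l (0.04), Nbeal1 (0.05), Rnf103 (0.10) and Phka1 (0.11). The mitotic signals of Gabrr2 (0.054), Slc27a5 (0.067), Morn5 (0.069), Fhl1 (0.059), Srrm3 (0.090) and Phka1 (0.090) were below the added 0.1. The mitotic ratios of these genes, and so their closeness to a member, depend largely on that added value. Among the members, Cdkn1c and Cdkn2d lay closest to each other (0.36), and Cdkn1b and Cdkn1c farthest apart (2.69), although they are of 1 family. The INK4 pair Cdkn2c and Cdkn2d lay 1.43 apart.

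The nearest genes on the chromosome did not share the late G1 value of Cdkn1b. Gpr19, which starts 21.8 kb away on the minus strand, had 34.1 in late G1, against 47.6 in early G1. Crebl2 (90.1 kb) had 4.51 in late G1 and 6.03 in early G1, Apold1 (61.3 kb) 8.93 and 10.0, and Ddx47, an RNA helicase gene (91.2 kb), 13.6 and 18.3. These 4 neighbours kept 71.7% to 89.3% of their early G1 signal in late G1, where Cdkn1b kept 35.4%.

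Around Cdkn1c the nearest genes were more varied. Slc22a18, a transporter gene of the same imprinted domain (12.8 kb away, opposite strand), had 2.93 in late G1, against 0.624 in early G1, and Nap1l4 (88.1 kb), a histone chaperone gene, had 18.6 and 27.8. Kcnq1, the potassium channel gene that names the domain (354 kb), had 9.66 in late G1 and 6.14 in early G1, and Trpm5 (387 kb), a cation channel gene, had 165 and 323. The change of Cdkn1c, with 4.39 in late G1 and 4.96 in early G1, lay between theirs.

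Beside Cdkn2c, Faf1 starts 9.40 kb away on the opposite strand and had 8.39 in late G1, against 5.41 in asynchronous cells, while Cdkn2c had 3.76 and 5.71. Rnf11, a ubiquitin ligase gene (191 kb), had 4.64 and 4.22, Ttc39a (261 kb) 6.60 and 2.48, and Dmrta2 (311 kb), a transcription factor gene, 6.44 and 9.35. Dmrta2 was the one neighbour of Cdkn2c that was also below its asynchronous level.

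Beside Cdkn2d, Kri1 lies downstream on the same strand, with its start 503 bp past the RefSeq end of Cdkn2d, and had 16.2 in late G1, against 23.5 in early G1. Atg4d, an autophagy protease gene (25.9 kb), was listed at 0 in mitosis and had 10.9 in late G1 and 19.2 in early G1. Ap1m2 (20.9 kb) had 8.22 and 3.33, and Slc44a2 (46.4 kb) 22.9 and 12.7. Cdkn2d, at 6.36 and 7.76, changed less than any of these 4.

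The other genes of the pathway were read from 7 lists, with changes given relative to the median gene because the columns differ in scale. Of the other inhibitor genes, Cdkn1a (p21), Cdkn2a (p16 and ARF), Cdkn2b (p15) and Cdkn3, a phosphatase that acts on CDKs, none of 4 was at least 2-fold above or below the median gene in early or late G1 against asynchronous cells. That far above the median gene were 9.00% of all genes in early G1, and 14.7% were that far below it. For late G1 these shares were 12.8% and 7.99%. On the deposited values 1 of 4, Cdkn1a, was past 2-fold higher in early G1, beside 17.7% of all genes. Its signal was 277 there, against 117 in asynchronous cells (log2 ratio 1.24, and 0.94 above the median gene). None of the 4 was past 2-fold in late G1, beside 16.9% of all genes higher and 5.14% lower. From early to late G1 the log2 ratios of these 4 other inhibitor genes ran from -0.45 for Cdkn1a to 0.38 for Cdkn2b on the deposited values. Cdkn1b at -1.48 lay outside that range.

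Among 9 genes of G1 and S kinases and cyclins, the targets of these inhibitors, 4 were at least 2-fold below the median gene in late G1 against asynchronous cells and 0 above, where 7.99% of all genes were below and 12.8% above. On the deposited values 2 of 9, Cdk1 and Ccnd1, were at least 2-fold lower, beside 5.14% of all genes, while Ccne1 (log2 ratio -0.995, just within 2-fold) and Cdk2 (-0.92) passed only relative to the median gene. Cdk1, the mitotic kinase, had 24.1 in late G1, against 69.4 in asynchronous cells. Ccnd1, the cyclin D1 gene, had 18.4 and 52.5, Ccne1, the cyclin E1 gene, 12.4 and 24.9, and Cdk2 12.1 and 22.9. Cdk4, which encodes a kinase that INK4 proteins bind, had 72.7 in late G1, against 44.3 in asynchronous cells, and stayed within 2-fold of the median gene. None of the 9 was at least 2-fold lower in late than in early G1, beside 7.52% of all genes. In early G1 against asynchronous cells, 3 of the 9 (Cdk1, Ccne1 and Ccnd1) were already at least 2-fold below the median gene. That far below were 14.7% of all genes. On the deposited values Cdk1 (25.2 in early G1) and Ccne1 (9.09) were past 2-fold lower there, beside 9.53% of all genes, while Ccnd1 (30.8) was not. Of the 9 genes of pocket proteins and E2F factors, which act below CDK4 and CDK6, Rb1 and Rbl2 were at least 2-fold above the median gene in late G1. On the deposited values E2f6 (10.9 in late G1 and 5.05 in asynchronous cells) was also past 2-fold higher, beside 16.9% of all genes. Rb1 had 16.8 in late G1, against 4.18 in asynchronous cells, and Rbl2 26.9 and 10.2. In early G1, Rb1 (15.3) was already at least 2-fold above the median gene, as 9.00% of all genes were. On the deposited values Rb1 (log2 ratio 1.85) and Rbl2 (23.7 in early G1, 1.20) were past 2-fold higher there, beside 17.7% of all genes. E2f2 was at least 2-fold below the median gene in early G1, as 14.7% of all genes were. It had 1.92, against 3.79 in asynchronous cells, and stayed within 2-fold on the deposited values (-0.94).

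Of 11 genes of p27 turnover, none was at least 2-fold lower at 3 h than at 1 h, beside 7.52% of all genes. In so short a list that count is near the share of all genes. Against asynchronous cells, 3 were at least 2-fold above the median gene in early G1 and 0 below, where 9.00% of all genes were above and 14.7% below. On the deposited values 5 of 11 were past 2-fold higher, Ddb1 (log2 ratio 1.21) and Ubac1 (1.16) being added, beside 17.7% of all genes. Rnf123, which encodes a ubiquitin ligase of p27, had 117 in early G1, against 34.5 in asynchronous cells. Cul4a, a cullin scaffold gene, had 20.8 in early G1 and its paralog Cul4b 46.1, against 7.26 and 15.6 in asynchronous cells. Skp2, the F-box gene of the ligase that marks p27 in S and G2 phases, had 28.4 at 1 h, 18.5 at 3 h and 15.6 in asynchronous cells.

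FOXO factors activate Cdkn1b and AKT kinases restrain them. Their genes differed in direction in early G1 against asynchronous cells: Foxo1, Foxo3 and Akt1 were at least 2-fold above the median gene and Foxo4 at least 2-fold below it. Of all genes, 9.00% were above and 14.7% below. Foxo1 had 22.2 at 1 h, 12.1 at 3 h and 7.49 in asynchronous cells, and Foxo3 had 69.3, 51.0 and 21.0 in the same order. Foxo4 was low, with 7.59, 8.56 and 23.1. Akt1, listed at 0 in mitosis, had 93.0, 35.6 and 13.8. It was at least 2-fold lower in late than in early G1 (-1.38), as were 7.52% of all genes. Menin and MLL1 activate Cdkn1b and Cdkn2c in mouse endocrine cells. Men1, the menin gene, had 9.74 at 1 h, 8.06 at 3 h and 17.1 in asynchronous cells. It was at least 2-fold below the median gene in early G1, as 14.7% of all genes were, and in late G1, as 7.99% were. On the deposited values it was at least 2-fold lower in late G1 (-1.08), beside 5.14% of all genes, but not in early G1 (-0.81). Kmt2a, the MLL1 gene, had 24.3, 13.4 and 16.2, and Psip1, which encodes a partner of both, 24.5, 23.6 and 19.9.

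Of the 10 genes of the Kcnq1 imprinted domain in the table, 2 were past 2-fold higher at 3 h than at 1 h and 0 lower, beside 15.1% and 7.52% of all genes. Osbpl5 had 3.50 in late G1 and 0.269 in early G1, and Slc22a18 2.93 and 0.624, so both changes rest on low early G1 signals. Cd81, a tetraspanin gene, was even between the G1 columns, with 127 in late G1 and 133 in early G1, against 52.2 in asynchronous cells. Cdkn1c kept 88.5% of its early G1 signal in late G1 and stayed within 2-fold. The counts of the domain are near the shares of all genes, so they are not a result about the domain.

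**Figure D4:**
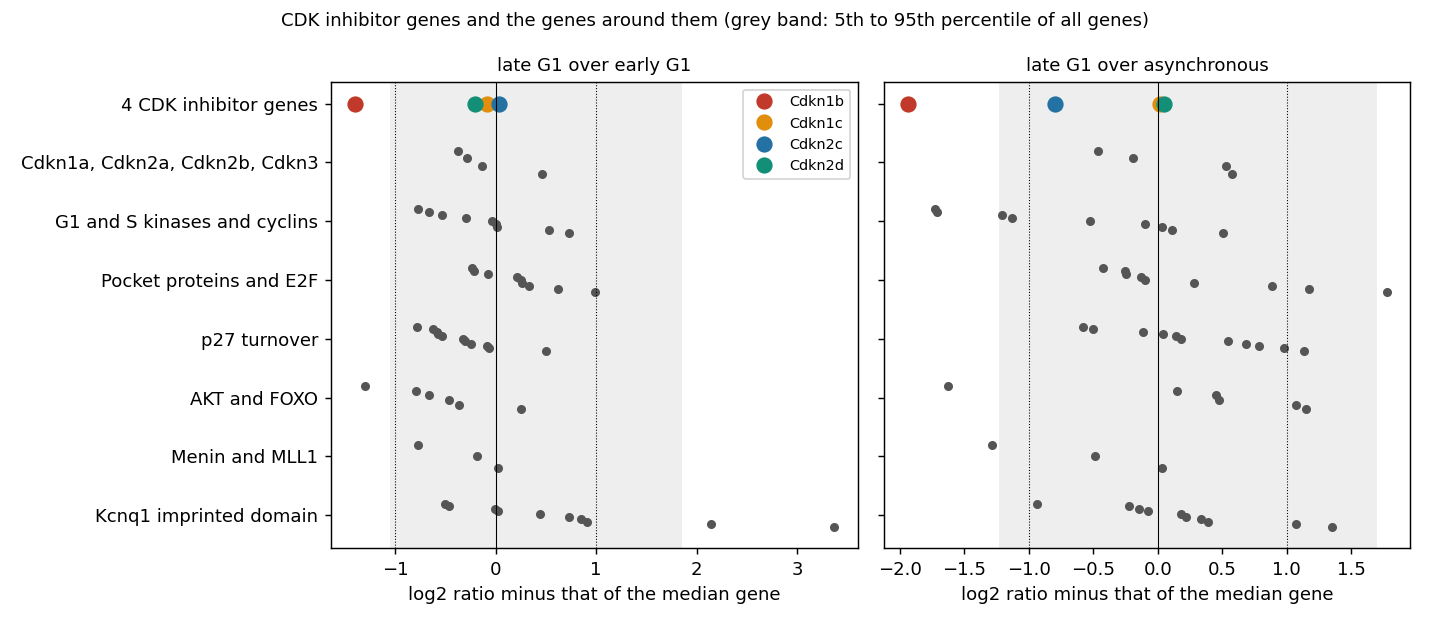
The log2 ratio minus that of the median gene (horizontal axis) for late over early G1 on the left and late G1 over asynchronous cells on the right, 1 point per gene, with the 4 CDK inhibitor genes in colour in the top row and 7 gene lists below. The dotted lines mark 2-fold and the grey band the 5th to 95th percentile of all genes. Cdkn1b lies at -1.40 on the left and -1.94 on the right, outside the band in both.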

How the data were processed

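PRO-seq of 8 libraries in 4 groups was analysed from 1 table. The authors deposited a normalized signal per gene and group, already combined over 2 libraries, and the sources used here do not say how it was scaled, pooled and assigned to genes. The submitters' processing notes name SAMtools, Picard, Bowtie2 and cutadapt, with the mm10 (GRCm38) build and no versions. The table also holds the authors' deposited temporal class, a text label of another kind.

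Log2 ratios of (signal + 0.1) were computed for 6 comparisons with Python 3.11.15, numpy 2.4.6 and pandas 2.3.3. The ratio step was checked with known folds put into a copy of the real values, at genes with signal well above 0.1. The minimum mean signal of 0.5 left out 47 of 14861 genes, and a gene at 0 was left out of ratios that use that column. Genes were named by a rule: the 4 members, up to 4 genes per list past 2-fold relative to the median gene, 2 neighbours per side and 5 most similar profiles. Other list genes (Cdkn1a, Cdkn2a, Cdkn2b, Cdkn3, Cdk4, E2f6, Skp2, Ddb1, Ubac1, Kmt2a, Psip1, Fn1) were added after their values were seen, and 1 list gene is not reported here. Members, lists and comparisons were chosen with earlier results of these data known. No table column was left unmapped. The depth is unknown, so no interval is given. Alternatives were 3 scalings, 2 pseudocounts, 2 filters, zeros kept and a 1.5-fold threshold.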

Additional observations from a re-analysis of the deposited data

How the results depend on the processing

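No paired analysis was possible because the table gives 1 combined column per group. Leaving out a library could not be done for the same reason. Cdkn1b in late G1 held under every alternative run: its log2 ratio ran from -1.49 to -1.34 against early G1 and from -2.04 to -1.67 against asynchronous cells. Of 168 ratios of the 4 genes under alternatives, 131 kept their direction and side of 2-fold, or stayed within 2-fold. The 2 filters on mean signal are among these alternatives and cannot change the ratio of a member. Their part of the 131 was therefore fixed in advance and says nothing about robustness.

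All reversals of a ratio past 2-fold involved mitosis and came with rescaling, which removes the general fall by construction. With equal medians, equal totals or quantile normalization, 2 of 4 genes (Cdkn1c and Cdkn2d) were past 2-fold higher in mitosis than in asynchronous cells. Of all genes, 9.55%, 8.61% and 8.56% were that much higher under these settings, in that order. On the deposited values all 4 were past 2-fold lower. In early G1 against mitosis 2 of 4 (Cdkn1c and Cdkn2c) were past 2-fold lower, beside 13.7%, 10.5% and 8.88% of all genes. On the deposited values all 4 were past 2-fold higher there. With equal medians the mitotic over asynchronous ratios were 1.41 for Cdkn1c, 0.64 for Cdkn2c and 1.11 for Cdkn2d, with quantile normalization 1.45, 0.65 and 1.12, and with equal totals 1.34, 0.57 and 1.04. Early G1 over mitosis, in the order Cdkn1b, Cdkn1c, Cdkn2c and Cdkn2d, gave -0.36, -1.33, -1.49 and -0.89 with equal medians, -0.37, -1.15, -1.26 and -0.81 with quantile normalization, and -0.19, -1.16, -1.32 and -0.72 with equal totals. Late G1 over mitosis gave -1.72, -1.39, -1.43 and -1.06 with equal medians, -1.78, -1.59, -1.69 and -1.17 with quantile normalization, and -1.52, -1.19, -1.23 and -0.86 with equal totals. In late G1 against asynchronous cells, 2 genes were at least 2-fold lower with quantile normalization, beside 10.0% of all genes. With a 1.5-fold threshold 2 genes were lower, beside 12.3% of all genes. Both counts stand in place of 1, the added gene being Cdkn2c.

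Over all genes, those at least 2-fold lower in late than in early G1 numbered 1106, and 763 with equal medians, 694 with equal totals and 3456 at 1.5-fold. Those at least 2-fold higher numbered 2226, and 2557 with equal medians, 1583 with quantile normalization (1212 lower) and 1255 with a minimum mean of 2.5 (972 lower). In late G1 against asynchronous cells 2483 were higher and 755 lower, 1900 and 1162 with equal medians, 1625 and 1472 with quantile normalization. In early G1 against asynchronous cells 2596 were higher and 1397 lower, and 1277 and 2181 with equal medians. The cause of the other changes was not tested.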
